A study of Mus musculus with 6 samples.

Results

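Fos, Fosb, Fosl2, Jun, Junb, Jund, Atf3 and Maff are basic leucine zipper transcription factor genes, and they were chosen by name as the AP-1 family factors and their close partners. All 8 were found in the deposited table of 55450 genes, 1 row each. The values describe regulatory T (Treg) cells sorted from MC38 tumours, a transplanted mouse colon carcinoma, of about 8 mm in C57BL/6 mice. Each of the 2 groups had 3 libraries: in the sufficient group the Treg cells carry Tim-3, and in the deficient group Tim-3, an inhibitory receptor encoded by Havcr2, is knocked out in Treg cells. The labels name neither the Cre driver nor the allele, and they give no age of the mice. Nor do they tie each library to a mouse of its own. The p-values therefore set each group difference against the spread between these libraries. That spread may be technical and need not be the spread between mice. Every mouse carried a tumour, so there is no tumour-free Treg sample to set these levels against.

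AP-1 is a dimer. Jun proteins pair with each other or with Fos proteins through a leucine zipper, and the dimer binds a short palindrome in DNA. In T cells AP-1 is formed after the antigen receptor and CD28 signal through MAP kinases, and it binds many cytokine gene promoters side by side with NFAT. Fos, Fosb, Jun, Junb and Atf3 are immediate early genes, transcribed within minutes of a stimulus without new protein synthesis. The same genes are also induced by handling and enzymatic dissociation of tissue. In Treg cells JunB is known to be needed for the effector programme.

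The DNA just before the start of 4 of the genes is shown. Fos and Junb, whose groups did not overlap (as in 17.6% of all tested genes), stand beside Jun and Fosb, whose groups did. Fosb shares a marked site with Fos and Junb, and no link between sequence and overlap was tested. Each line holds the 150 bases before the start site, 5′ to 3′ on the gene's strand, from RefSeq on GRCm38.p6. Capitals mark the CRE half-site TGACG (the core to which CREB and ATF proteins bind), the AP-1-like site TGACATCA of the Jun promoter, the TATA box TATAAA and the CCAAT box.
Fos (chr12:85473740-85473889, plus strand): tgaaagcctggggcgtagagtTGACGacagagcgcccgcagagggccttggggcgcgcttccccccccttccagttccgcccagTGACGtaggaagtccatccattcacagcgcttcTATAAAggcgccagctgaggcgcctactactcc
Junb (chr8:84978749-84978898, minus strand): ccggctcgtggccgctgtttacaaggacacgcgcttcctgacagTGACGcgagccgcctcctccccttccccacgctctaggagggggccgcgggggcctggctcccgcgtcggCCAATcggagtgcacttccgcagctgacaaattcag
Jun (chr4:95052223-95052372, minus strand): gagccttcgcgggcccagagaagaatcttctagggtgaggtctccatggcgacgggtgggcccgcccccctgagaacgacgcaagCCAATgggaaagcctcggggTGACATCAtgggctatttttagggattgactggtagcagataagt
Fosb (chr7:19310046-19310195, minus strand): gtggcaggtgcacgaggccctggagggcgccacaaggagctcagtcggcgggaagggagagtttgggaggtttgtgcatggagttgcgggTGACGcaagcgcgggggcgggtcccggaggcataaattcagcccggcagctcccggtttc

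RefSeq windows were matched for all 8 members, 10 windows in all because Maff has several starts. A member is counted below if any of its windows held the sequence, whereas the percentages are shares of single windows. In the 250 bases before the start, on both strands, the AP-1 site TGANTCA was in 0 of the 8 members' windows against 6.75% of 32851 mouse promoter windows of that length. The full CRE, TGACGTCA, was in 1 member, Maff, against 1.55%. The CArG box, which serum response factor binds, was in 0 members against 1.47%, and bases further upstream were not searched. TATAAA was in 1 member, Fos, against 12.4%, CCAAT in 2 members (Jun and Junb) against 33.8%, and the GC box GGGCGG in 6 members against 32.7%. TGACG and TGACATCA were added after the windows had been read. The half-site TGACG, which every full CRE also contains, was in 5 members against 17.8%, and Fos held it at 66 and 129 bases before its start. TGACATCA was in 2 members, Jun and Maff, against 2.93%, and in Jun its first base lay 45 bases before the start. The starts in RefSeq and in GENCODE lay 1210 bases apart for Jund, 671 for Fosl2 and 34706 for Atf3, so their windows may not be the promoters used in these cells and are not printed. All Maff matches lay in windows whose RefSeq starts were 899 and 1781 bases from the GENCODE start, so the same limit holds for them. A match of letters is not evidence of binding.

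Junb and Fos were the most abundant members, and both stood higher in every deficient library than in any sufficient library. Atf3 stood higher on average by the largest amount, with 1 sufficient library within the deficient range. Jun differed in the same direction with overlap. Fosb, Fosl2 and Maff differed little between groups. Jund was low in 2 deficient libraries and highest of all in the third. None of the 8 was called, that is, reached a Benjamini-Hochberg adjusted p under 0.05 over the 12155 genes tested with limma, where 0.206% of all tested genes were called. At an unadjusted p under 0.05 the count was 3 members (Fos, Junb and Atf3), against 11.7% of all tested genes. Of the members, 5 had a positive difference (60.1% of all tested genes did), and their median difference was 0.39 against 0.09 over all tested genes, in log2(TPM + 1), deficient minus sufficient. Fos and Junb were the 2 members without overlap between groups, both higher, where 17.6% of all tested genes had no overlap and 10.9% were higher without overlap.

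Some facts of the whole series bear on these values. The unit is log2(TPM + 1). TPM counts transcripts per length as a share of a fixed total, so levels can be compared between genes but the read depth is unknown. From 11470 to 12681 genes per library had at least 1 TPM. In each group 1 library carries a calendar date in its column name and is called dated, and the other 4 libraries are called undated (sufficient A1 and B1, deficient C1 and D). What the date stands for is not said, and it is treated as a possible batch. Pearson's r between libraries across tested genes was 0.918 to 0.970, a description over genes that are not independent replicates. Havcr2 was lower in every deficient library (2.55 to 4.27) than in any sufficient library (4.49 to 5.70), and was not called (adjusted p in limma = 0.211), though it was with the date mark as a block (0.0148). limma called 25 genes, 16 higher and 9 lower. After median centring 11 of 30 calls were higher and after quantile normalization 16 of 38. Centring moved the median difference of all genes by 0.13, from 0.09 to -0.041, and all members but Maff kept their direction under both scalings. Fos went from 0.69 as deposited to 0.55 after centring (adjusted p in limma = 0.264) and 0.67 after quantile normalization. Junb went from 0.72 to 0.58 (0.392) and 0.83. Maff had 0.095 as deposited and -0.040 after centring. The Treg genes Foxp3 (4.82 to 5.56), Ctla4 (10.03 to 10.76) and Ikzf2 (7.98 to 9.18) were found in every library.

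**Figure D1:**
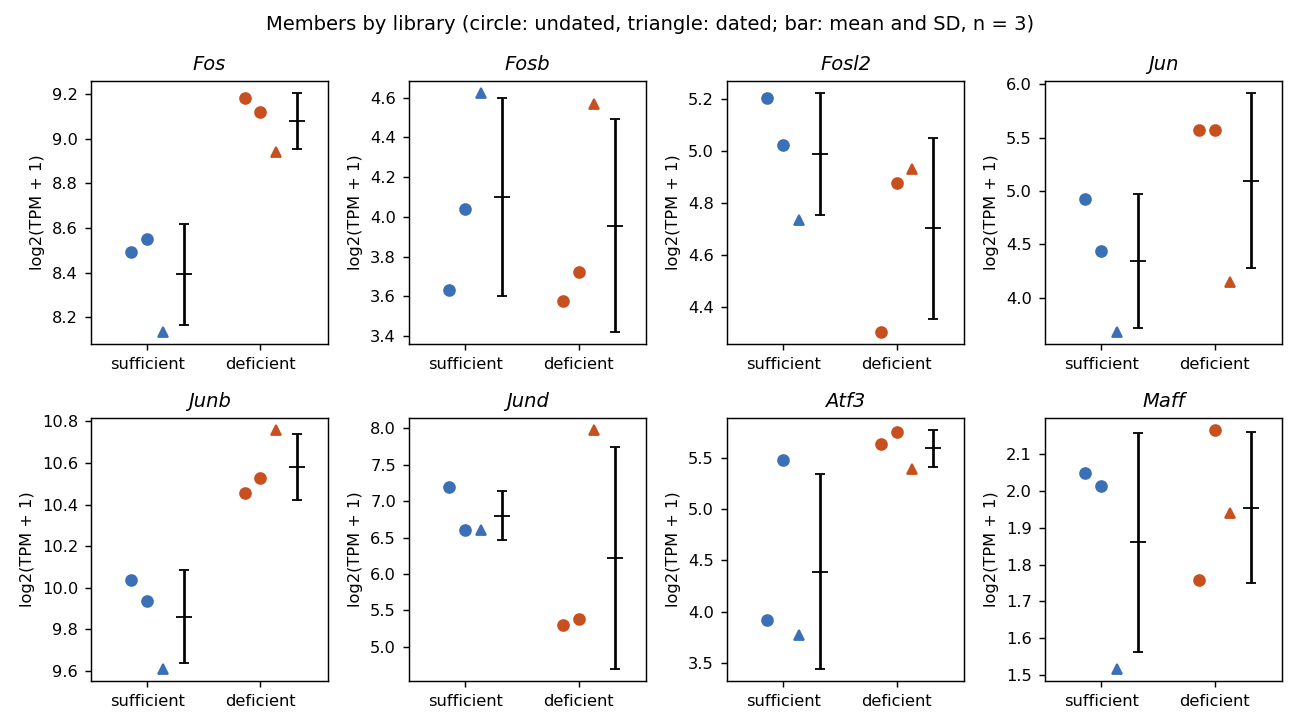
Level of each member in log2(TPM + 1) in the 6 libraries, undated libraries as circles and dated ones as triangles, with a black bar for the group mean with its SD (n = 3). Fos (8.94 to 9.18 against 8.13 to 8.55) and Junb (10.45 to 10.76 against 9.61 to 10.04) separate the groups, and Jund splits the deficient libraries.

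Fos encodes c-Fos, the inducible partner of Jun proteins (ENSMUSG00000021250.13, GRCm38 chromosome 12, 85473890 to 85477273, plus strand). Its level was 8.49, 8.55 and 8.13 in sufficient A1, B1 and dated, and 9.18, 9.12 and 8.94 in deficient C1, D and dated, in log2(TPM + 1). In TPM these levels were 359, 374 and 280 against 580, 555 and 490. The groups did not overlap, and the lowest library of each group was the dated one. The group means were 8.39 ± 0.23 and 9.08 ± 0.13 (SD, n = 3 each), a difference of 0.69 ± 0.16 (SE) or 1.61-fold, with a 95% interval of 0.33 to 1.05. The adjusted p in limma was 0.152. Blocking on the date mark, the same difference had an SE of 0.10 and an adjusted p in limma of 0.0280, so Fos was called there, 1 of the 8 members against 1.97% of all tested genes.

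Fosb, which encodes another inducible Fos protein (ENSMUSG00000003545.3, chromosome 7, 19302696 to 19310051, minus strand), stood at 3.63, 4.04 and 4.62 in sufficient A1, B1 and dated and at 3.58, 3.72 and 4.57 in deficient C1, D and dated, in log2(TPM + 1). The highest 2 values were those of the dated libraries, 1 in each group, so the level followed the date mark more than the group. The difference was -0.14 ± 0.35 (SE), with a 95% interval of -0.96 to 0.67. Its sign was not stable: leaving out deficient C1 gave 0.046, and leaving out the sufficient dated library gave 0.12.

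Fosl2, which encodes Fra-2 (ENSMUSG00000029135.10, chromosome 5, 32135801 to 32157842, plus strand), had 5.20, 5.02 and 4.73 in sufficient A1, B1 and dated, and 4.30, 4.88 and 4.93 in deficient C1, D and dated, in log2(TPM + 1). The groups overlapped, and the difference was -0.28 ± 0.24 (SE), with a 95% interval of -0.83 to 0.27. Both undated deficient values were below both undated sufficient ones, a difference of -0.52, whereas the dated libraries differed by 0.19. Without deficient C1 it was -0.084.

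Junb encodes JunB, which pairs with Fos proteins and with BATF (ENSMUSG00000052837.6, chromosome 8, 84974484 to 84978718, minus strand). Its level was 10.04, 9.94 and 9.61 in sufficient A1, B1 and dated, and 10.45, 10.53 and 10.76 in deficient C1, D and dated, in log2(TPM + 1). In TPM this was 1051, 978 and 780 against 1402, 1475 and 1733. The groups did not overlap, and the dated libraries held both the lowest and the highest level. The group means were 9.86 ± 0.22 and 10.58 ± 0.16 (SD, n = 3 each), a difference of 0.72 ± 0.16 (SE) or 1.65-fold, with a 95% interval of 0.35 to 1.09. The adjusted p in limma was 0.142, and 0.0568 after blocking on the date mark. The undated libraries differed by 0.50 and the dated ones by 1.15. Exons of Junb share 173 bases with Prdx2, a peroxiredoxin gene on the opposite strand. The kit in the labels is not said to keep strand, so reads there cannot be assigned. Prdx2 itself stood at 8.15 to 8.82 in sufficient and 8.17 to 8.51 in deficient libraries.

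Jun encodes c-Jun, the Jun protein activated by JNK phosphorylation (ENSMUSG00000052684.4, chromosome 4, 95049034 to 95052222, minus strand). Its level was 4.92, 4.44 and 3.68 in sufficient A1, B1 and dated, and 5.57, 5.57 and 4.15 in deficient C1, D and dated, in log2(TPM + 1). Each dated library was the lowest of its group, and the deficient dated library lay within the sufficient range. The difference was 0.75 ± 0.45 (SE) or 1.68-fold, with a 95% interval of -0.30 to 1.80 and an adjusted p in limma of 0.551. Blocking on the date mark, the SE was 0.19 and the adjusted p 0.0986, while undated libraries differed by 0.89 and dated ones by 0.47. Leaving out the deficient dated library gave 1.22, and leaving out the sufficient dated one gave 0.42. The antisense gene Junos shares 232 exon bases with Jun and stood at 0.63 to 1.56.

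Jund encodes JunD, the Jun protein that resting cells make constitutively (ENSMUSG00000071076.6, chromosome 8, 70698949 to 70700616, plus strand). Its level was 7.20, 6.60 and 6.61 in sufficient A1, B1 and dated, but 5.30 and 5.38 in deficient C1 and D and 7.98 in the deficient dated library, in log2(TPM + 1). In TPM this was 146, 96.3 and 96.4 against 38.4, 40.7 and 251. The 2 undated deficient libraries were the lowest of all 6 and the dated one the highest. Over all libraries the difference was -0.58 ± 0.65 (SE), with a 95% interval of -2.08 to 0.92 and an adjusted p in limma of 0.768. Among undated libraries it was -1.56, and without both dated libraries Jund was called (adjusted p in limma = 0.0254, 1 of 8 members against 1.77% of all tested genes). Without the deficient dated library alone it was also called, at -1.46 (0.0384). It was -0.12 without deficient C1 and -0.16 without deficient D. In the dated pair the difference was 1.37. The test of whether the group difference depended on the date mark, an interaction term in limma, gave 2.93 ± 0.38 (SE), an unadjusted p of 7.1e-05 and an adjusted p of 0.0951, above the threshold. Of all tested genes 0.0165% passed that test, and 16.7% had undated groups without overlap with the dated pair in the opposite direction. The antisense gene Gm11175 shares 877 exon bases with Jund and stood at 0 to 1.20.

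Atf3 encodes a stress-induced ATF protein that pairs with Jun proteins and can repress its targets (ENSMUSG00000026628.13, chromosome 1, 191170296 to 191218039, minus strand). Its level was 3.92, 5.48 and 3.77 in sufficient A1, B1 and dated, and 5.63, 5.75 and 5.40 in deficient C1, D and dated, in log2(TPM + 1). In TPM this was 14.1, 43.8 and 12.6 against 48.7, 53.0 and 41.1. Sufficient B1 lay within the deficient range, and the other 2 sufficient libraries lay well below it. The group means were 4.39 ± 0.95 and 5.59 ± 0.18 (SD, n = 3 each), a difference of 1.20 ± 0.43 (SE) or 2.30-fold, with a 95% interval of 0.22 to 2.19 and an adjusted p in limma of 0.329. Undated libraries differed by 0.99 and dated ones by 1.63, and leaving out sufficient B1 gave 1.75 (adjusted p in limma = 0.127). Macrophages also make Atf3. The summed level of 14 macrophage and monocyte markers was 1540 TPM in sufficient B1 against 618 in A1 and 492 in dated, and it was 2023 TPM in deficient C1 against 442 in D and 538 in dated. Sufficient B1 and deficient C1 were thus the libraries richest in these markers, none of which was at 0 in every library. Most of each lower sum was Ctss, which stood at 8.72 to 9.24 in log2(TPM + 1) in every library. Its mean was 508 TPM in sufficient and 513 TPM in deficient libraries. Lyz2 had 8.94 in sufficient B1 and 9.08 in deficient C1, against 1.99 to 5.91 in the other libraries. The Atf3 difference was 1.18 without deficient C1. Without both it was 1.73 (adjusted p in limma = 0.305), close to the value without sufficient B1 alone, and the part of macrophages in the level of Atf3 was not tested.

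Maff encodes a small Maf protein, which lacks a transactivation domain and pairs with cap n collar factors such as NRF2 (ENSMUSG00000042622.14, chromosome 15, 79346621 to 79359076, plus strand). It was the least abundant member, at 2.05, 2.01 and 1.52 in sufficient A1, B1 and dated, and at 1.76, 2.17 and 1.94 in deficient C1, D and dated, in log2(TPM + 1). The groups overlapped, with a difference of 0.095 ± 0.29 (SE) and a 95% interval of -0.58 to 0.77. Its sign was not stable: leaving out the sufficient dated library gave -0.077 and leaving out deficient D gave -0.011, while leaving out sufficient A1 or deficient C1 gave 0.19.

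The exact two-sided permutation test over the libraries gave p = 0.10 for Fos and for Junb, the smallest it can give with 3 libraries against 3, and 0.20 for Atf3, 0.30 for Jun, 0.40 for Fosl2, 0.60 for Jund and 0.70 for Fosb and Maff.

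**Figure D2:**
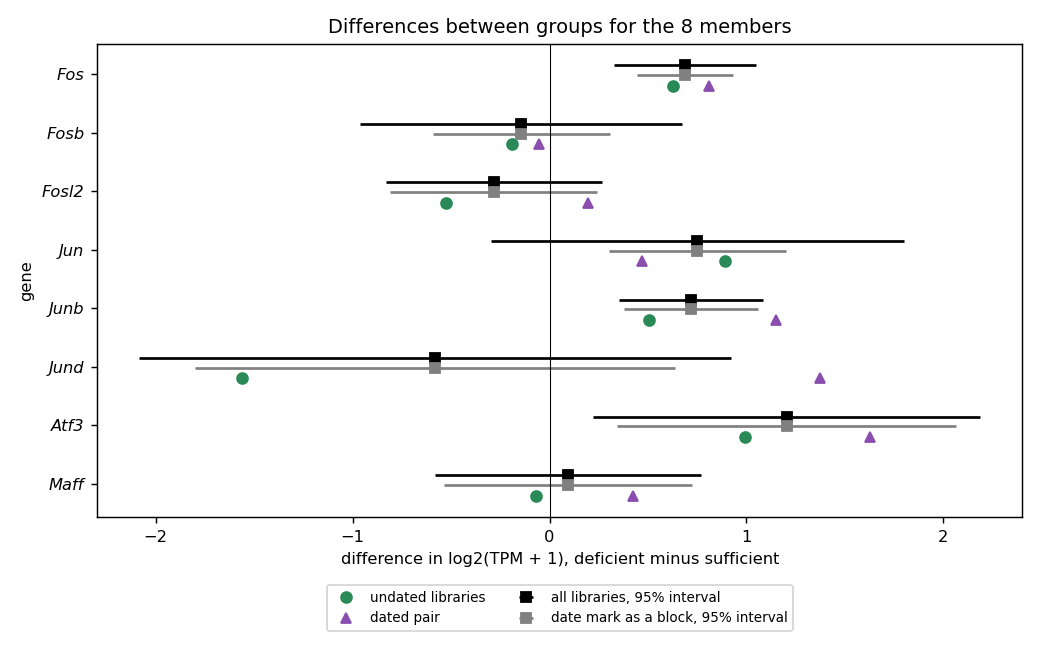
Difference in log2(TPM + 1), deficient minus sufficient, for each member: black squares with all libraries and grey squares with the date mark as a block, both with 95% intervals, green circles among undated libraries and purple triangles in the dated pair. Fos, Junb and Atf3 have both intervals above 0 and positive values in undated and dated libraries, Jun has an interval above 0 only with the block, and Jund has -1.56 and 1.37.

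Set side by side per length, the members formed a steep order. By its mean TPM over the libraries Junb lay at percentile 98.9 of all tested genes, Fos at 96.5, Jund at 89.2, Atf3 at 73.8, Jun at 69.8, Fosl2 at 69.6, Fosb at 57.8 and Maff at 19.3. Over the 6 libraries the range in log2(TPM + 1) of each neighbour from Jund (5.30 to 7.98) through Atf3 (3.77 to 5.75), Jun (3.68 to 5.57) and Fosl2 (4.30 to 5.20) to Fosb (3.58 to 4.62) overlapped with the next. Of these neighbours Fosl2 was above Fosb in all 6 libraries, while in each other pair the order changed between libraries. Junb, Fos and Maff overlapped with no neighbour. The order of the middle members depended on the group: mean TPM was 31.0 for Fosl2, 23.5 for Atf3 and 20.6 for Jun in sufficient libraries, and 25.5, 47.6 and 36.6 in deficient ones. The 8 members together summed to 1650, 1563 and 1232 TPM in sufficient A1, B1 and dated, and to 2148, 2214 and 2587 TPM in deficient C1, D and dated. The groups did not overlap in this sum, of which Junb and Fos made up 85.5% to 92.3%.

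Junb alone made up 63.7%, 62.6% and 63.3% of that sum in sufficient A1, B1 and dated, and 65.3%, 66.6% and 67.0% in deficient C1, D and dated. The share was thus slightly higher in every deficient library, with group means of 63.2% ± 0.58 and 66.3% ± 0.89 (SD, n = 3 each). The share of Jund was 8.84%, 6.16% and 7.82% in sufficient A1, B1 and dated and 9.72% in the deficient dated library, but 1.79% and 1.84% in deficient C1 and D. Fosl2 made up 2.02% to 2.17% in sufficient and 0.872% to 1.28% in deficient libraries, without overlap. Its own level did overlap between groups. The sum it is divided by had a mean of 1482 TPM in sufficient and 2316 TPM in deficient libraries, which lowers the share of an unchanged gene. Jun proteins together held 70.1% to 74.3% in sufficient and 69.2% to 77.3% in deficient libraries. These shares are of RNA and are given as a description, with no test.

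**Figure D3:**
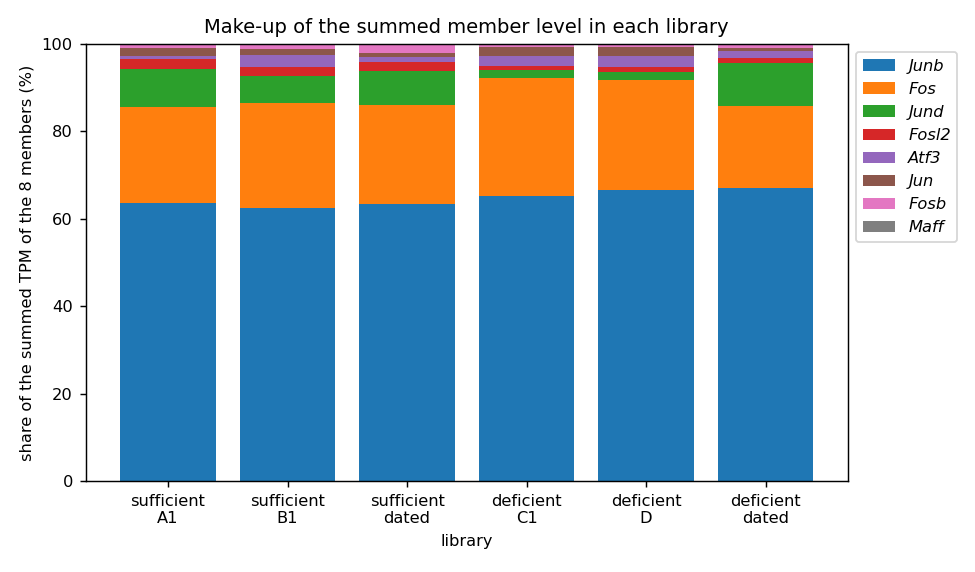
Share of the summed TPM of the 8 members in each library, in percent, stacked by gene. Junb (62.6% to 67.0%) fills most of every bar, and the share of Jund is 1.79% and 1.84% in deficient C1 and D against 6.16% to 9.72% in the other libraries.

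Across the 6 libraries the members did not vary as one block. As a description only, over libraries that share their group and date mark, Pearson's r was 0.90 between Fos and Junb, 0.85 between Fos and Atf3 and 0.77 between Fos and Jun. It was -0.92 between Jun and Fosb and -0.70 between Jun and Jund. The 5 other genes whose level followed the mean of the standardised members most closely were Tmem134 (r = 0.993), Fam177a (0.989), Tmem185a (0.989), H2-T22 (0.986) and Trappc6b (0.983), each over 6 libraries and picked from 12155 tested genes. That mean joins members that varied in opposite directions, such as Jun and Fosb. Nor does r give the size of a change: Tmem134 ran only from 7.54 to 7.78 in log2(TPM + 1).

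Around the members, 9 lists of other genes of the pathway were described. Among 19 other AP-1 and ATF relatives, 15 were tested and none was called by limma with all libraries (3 at an unadjusted p under 0.05, 12 positive, 3 negative, median difference 0.13, against 0.09 over all tested genes). Jdp2, which encodes a repressor that pairs with Jun proteins, stood at 4.76 to 4.85 in sufficient and 2.28 to 3.63 in deficient libraries, a difference of -1.92 ± 0.34 (SE) with an adjusted p in limma of 0.0921, and was called with the date mark as a block (0.0298). Batf, the partner of JunB and IRF4 in effector Treg cells, was as high as 7.30 to 8.48 and differed by 0.29 (adjusted p in limma = 0.701). Fosl1, which encodes Fra-1 and was singled out after its values were seen, had 0.28, 1.17 and 0.63 in sufficient A1, B1 and dated, and 6.28, 5.30 and 1.55 in deficient C1, D and dated. The difference of Fosl1 was 3.68 ± 1.06 (SE), with an adjusted p in limma of 0.240, or 0.0645 after blocking on the date mark. Of 11 tumour, stromal and endothelial markers, the summed level was 320.8 TPM in deficient C1, 78.7 in D and 45.2 in dated, against 30.7 to 78.3 in sufficient libraries. Their part in the level of Fosl1 was not tested. Of these 11 markers 5 were tested, among them the epithelial marker Epcam, which had a positive difference. The epithelial keratins Krt8 and Krt19 were the 2 listed at 0 in every library.

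Of 11 large and small Maf and cap n collar factors, 6 were tested and none was called with all libraries (2 at an unadjusted p under 0.05, median -0.24). With the date mark as a block 1 was called higher and 1 lower, where 1.97% of all tested genes were called in either direction. Maf, which encodes c-Maf, a factor of effector Treg cells and of Il10 transcription, had 6.89 to 7.29 in sufficient and 5.88 to 6.36 in deficient libraries (difference -0.98, adjusted p in limma = 0.106, with the block 0.0421). Nfe2l2, which encodes the oxidative stress factor NRF2, had 4.44 to 4.93 and 5.07 to 5.76 (difference 0.84, adjusted p in limma = 0.243, with the block 0.0476).

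Upstream of AP-1, 0 of 20 tested MAP kinases and kinases above them were called with all libraries or with the block (3 at an unadjusted p under 0.05, median 0.11). The smallest p-values were those of the p38 kinase genes Mapk11 (difference 0.93, adjusted p in limma = 0.329) and Mapk12 (1.55, 0.353). Mapk12 was low, at 0.043 to 0.98 in sufficient and 1.14 to 3.35 in deficient libraries. It passed the filter only through the deficient libraries, so its p-value is no support for a difference. Of 9 tested MAP kinase phosphatases none was called with all libraries (2 at an unadjusted p under 0.05, median -0.13). Dusp10, which encodes a phosphatase of JNK and p38, was called higher with the block, at 4.70 to 5.18 in sufficient and 5.42 to 6.60 in deficient libraries (difference 1.13, adjusted p in limma = 0.216, with the block 0.0347). Of 14 tested activators of AP-1 gene promoters and turnover factors none was called in either fit (0 at an unadjusted p under 0.05, median 0.026). Elk3 (-0.29) and Cop1, a ubiquitin ligase for Jun (-0.62), had the smallest p. Among 10 T cell partners of AP-1 none was called with all libraries (3 at an unadjusted p under 0.05, median -0.20). Irf8 had 5.48 to 6.31 in sufficient and 4.15 to 4.99 in deficient libraries and was called lower with the block (difference -1.35, adjusted p in limma = 0.152, with the block 0.00963).

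Of 15 T cell genes known as AP-1 and NFAT targets, 12 were tested. With all libraries 1 was called, Ccl4, which encodes an inflammatory chemokine and fell by 3.99 on the log2 scale (adjusted p in limma = 0.0232). The median difference was -1.01, and 10 of the 12 were negative, whereas 60.1% of all tested genes were positive. At an unadjusted p under 0.05 in limma were 7 of the 12, against 11.7% of all tested genes. Without overlap between groups, 5 were lower and 1 higher, where 17.6% of all tested genes had no overlap. With the block Ccl3 (-4.18, adjusted p in limma 0.00770) and Fasl, the death receptor ligand (-1.23, 0.0234), were called lower as well, and Cd69, an early activation marker that retains lymphocytes in tissue, was called higher (0.88, 0.0280). Of all tested genes 1.97% were called with the block. Cd69 had 9.50 to 9.94 in sufficient and 10.25 to 10.83 in deficient libraries. The 2 positive values were those of Cd69 and of Cd40lg, which encodes CD40 ligand, had 0.21 and was not called. The median of the list was -1.27 in undated libraries and -0.42 in dated ones.

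Of 21 other immediate early genes, 20 were tested and none was called with all libraries (11 at an unadjusted p under 0.05, which 11.7% of all tested genes reached, 15 positive, 5 negative, median 0.54). With the block 4 were called higher, where 1.97% of all tested genes were called in either direction. Ier2 had 7.09 to 7.85 in sufficient and 7.96 to 8.47 in deficient libraries (difference 0.82, adjusted p in limma with the block 0.0378). The difference was 0.96 for Btg2, an antiproliferative factor (0.0240), 0.95 for Zfp36, an mRNA decay factor (0.0476), and 0.95 for Ppp1r15a, a phosphatase subunit of the stress response (0.0385). The negative values included Egr3 at -1.25, Nr4a2 at -0.86 and Nr4a3 at -0.67, singled out after their values were seen, none of which was called in either fit. In all 8 genes of this list were higher and 3 lower without overlap between groups, where 10.9% of all tested genes were higher and 17.6% did not overlap in either direction.

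Heat shock genes, which tissue dissociation can also induce, were set beside the members. Of 11 tested none was called with all libraries (2 at an unadjusted p under 0.05, 10 positive, 1 negative, median 0.64). With the block Hspa1a (1.62), Hspa1b (2.0) and the co-chaperone gene Dnajb1 (0.85) were called higher, where 1.97% of all tested genes were called in either direction. Their summed level was 2581, 2473 and 1958 TPM in sufficient A1, B1 and dated, and 4075, 3938 and 2479 TPM in deficient C1, D and dated. Fos, Jun and Atf3, like this sum, were highest in deficient C1 and D, whereas Junb and Jund were highest in the deficient dated library. In that dated library the sum was below that of sufficient A1 and above those of sufficient B1 and dated. Fos there was above its level in every sufficient library. The part of handling in the levels of Fos, Junb and Atf3 was not tested.

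**Figure D4:**
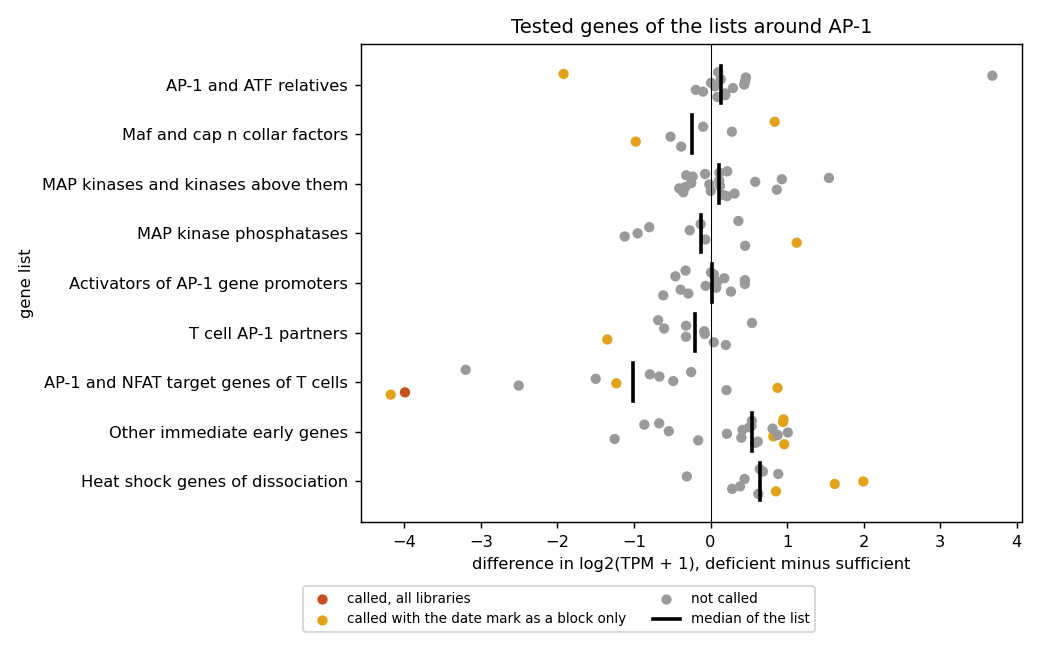
Difference in log2(TPM + 1), deficient minus sufficient, of each tested gene in the 9 lists around AP-1, with 1 point per gene (red where called with all libraries, orange where called only after blocking on the date mark, grey otherwise) and the list's median as a black line. Ccl4 at -3.99 is the 1 gene called with all libraries, and the medians run from -1.01 (AP-1 and NFAT targets) to 0.64 (heat shock genes).

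In these bulk libraries a change in the make-up of the cells and a change in RNA per cell cannot be told apart. The 10 Treg and T cell markers, of which limma called none (2 at an unadjusted p under 0.05, median -0.32), summed to 11390 to 13259 TPM in sufficient and 7750 to 10798 TPM in deficient libraries. The T cell receptor genes Trac (-0.61) and Cd3d (-0.51) had the smallest p among them. Dendritic cell markers summed to 239 to 831 TPM against 644 to 1881 TPM (4 of 10 tested, median difference 0.66). Nearly all of this sum was the MHC class II genes H2-Ab1 (mean 145 and 384 TPM) and Cd74 (335 and 800 TPM), which B cells and macrophages also express. The other markers of the list were low. Xcr1 differed by -0.49 and Zbtb46 by 0.030, neither called, Flt3 was below 1 in log2(TPM + 1) in every library, and Flt3, Clec9a, Cd209a and Siglech were listed at 0 in all 3 deficient libraries. B cell markers summed to 338 to 614 TPM against 582 to 793 TPM (3 of 7 tested, 0.84), and CD8 and NK cell markers to 27.4 to 58.2 TPM against 16.5 to 98.0 TPM (5 of 7 tested, -0.10). Neutrophil markers summed to at most 2.75 TPM in any library and 0 of 7 were tested. No marker of another cell type was called in either fit. Those of smallest p were Lyz2 (-0.97) and Apoe (-1.23) for macrophages, H2-Ab1 (1.58) and Cd74 (1.28) in the dendritic cell list, Igkc (1.49) and Ighm (0.43) for B cells, Klrb1c (0.70) and Prf1 (-1.06) for CD8 and NK cells, and Dcn (2.59) and Epcam (0.43) for tumour and stroma. The B cell marker Ms4a1 was listed at 0 in every library, and Pax5 in all but 1. The part of such cells in the levels of the members was not tested.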

How the data were processed

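Transcriptomes of 6 libraries were available, 3 sufficient and 3 deficient. The deposited values are log2(TPM + 1), since undoing the log2 and subtracting 1 gave libraries that add up to the fixed total of TPM. The submitters' processing notes name STAR, RSEM and limma and the builds GRCm38 and mm10, without roles or versions. TPM keeps no counts, so depth is unknown and only the spread between libraries gives precision. All 55450 identifiers matched GENCODE M21, whose 1-based GRCm38 coordinates were used. Genes at 1 TPM or more in at least 3 libraries (12155, all 8 members among them) were compared on the log2 scale with limma 3.58.1 (trended eBayes, two-sided, Benjamini-Hochberg over all tested genes, threshold 0.05) in R 4.3.3, and the script was tested on simulated data. Fold changes are on the log2(TPM + 1) scale, which understates the change of low genes.

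The members, lists and alternatives were chosen with earlier results of these data known. The text names all members, Havcr2, from each of 16 lists the genes called in either fit or else the 2 of smallest p, and the 5 genes most like the members. Predicted genes, pseudogenes and receptor segments were left out of the last. For 4 list genes an older symbol was matched through RefSeq synonyms. Tables were handled with pandas 2.3.3 in Python 3.11.15, exact tests were run in scipy 1.17.1 and plots drawn in matplotlib 3.10.9. Alternatives covered the filter, scaling, pseudocount, variance model, threshold, date mark and libraries left out.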

Additional observations from a re-analysis of the deposited data

Results flagged for a closer look

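Jund and Fosl2 had opposite directions in the undated libraries and in the dated pair. For Jund the difference in log2(TPM + 1) was -1.56 among undated libraries, where both deficient libraries lay below both sufficient ones, and 1.37 in the dated pair. The interaction of group and date mark had an adjusted p in limma of 0.0951. For Fosl2 the differences were -0.52 and 0.19, with an adjusted p of 0.881 for the interaction in limma. The dated pair holds 1 library of each group, and the date mark was seen in the column names, so these are not groups that the study set. Such a pattern of opposite directions was found at 16.7% of all tested genes.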

How the results depend on the processing

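No paired analysis was possible because no column name carries the replicate number of the labels, so a replicate block could not be fitted. The number of members called was 0 with all libraries. It was 1 with the date mark as a block (Fos), 1 without both dated libraries (Jund), 0 to 1 when each library was left out in turn (Jund, without the deficient dated library) and 3 at an unadjusted p under 0.05. It was 0 under each other setting, including without sufficient B1 and deficient C1, an alternative added after the data were seen. The 25 calls over all genes became 1 without a filter on low values, 47 with 1 TPM or more in all libraries, 38 after quantile normalization, 4 without the variance trend, 240 when the date mark was a block and 90 at an adjusted p under 0.1. They were 0 to 121 when each library was left out in turn (0 without sufficient B1 or deficient D, with 978 and 944 at an unadjusted p under 0.05, 2 without sufficient A1, 11 without deficient C1 and 121 without the deficient dated library), 215 without both dated libraries and 0 without sufficient B1 and deficient C1, with 748 at an unadjusted p under 0.05. The median member difference stayed between 0.22 and 0.46. Fos, Junb, Jun, Atf3, Fosl2 and Jund kept their sign in the 12 of 17 alternative fits in which the difference could change. In the rest it equals the value with all libraries by construction. Fosb, at -0.14 with all libraries, ran from -0.45 to 0.12 as single libraries were left out and had 0.017 without sufficient B1 and deficient C1. Maff, at 0.095 with all libraries, had -0.040 after median centring and -0.070 without both dated libraries, and ran from -0.077 to 0.19 as single libraries were left out.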
